A study of Mus musculus with 468 samples.

Results

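The transcripts described here are 10 genes of innate sensing and of the interleukin-1 (IL-1) pathway, namely Tlr2, Tlr4, Myd88, Nlrp3, Casp1, Gsdmd, Il1b, Il18, Tnf and Il1rn. They were taken by symbol from a fixed list of names, as 10 of the 23180 genes in the deposited tables, and all 10 were among the 18380 genes that reached 10 counts in at least 50% of the libraries. The libraries came from adipose RNA of Diversity Outbred (DO) mice, a stock bred from several inbred founder strains so that each animal carries its own mixture of founder genomes. All animals received a high-fat, high-sugar diet in which fat made up 45 percent, and each animal gave 1 library, so the spread between libraries joins differences between animals with assay error. The labels give no depot, sex, generation or age, and they place all libraries in 1 group, so no treated group was compared with a control. The questions put to these data were how strongly each gene varied among animals, how the genes varied together, and how each followed Adgre1, which encodes the macrophage surface protein F4/80.

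Toll-like receptors (TLRs) at the cell surface recognise microbial molecules, and Tlr4 is also known for its response to saturated lipid signals in obese fat. Most of them signal through the adaptor Myd88 to the transcription factor NF-kB, which raises the transcripts of Tnf, Il1b and Nlrp3. The Nlrp3 protein then assembles the inflammasome, a complex that activates caspase-1 (Casp1), which cuts the precursors of IL-1 beta and IL-18 and the pore-forming protein gasdermin D (Gsdmd), while Il1rn encodes the antagonist that occupies the IL-1 receptor without signalling. In adipose tissue these genes are known mainly from macrophages that gather around large adipocytes. Because cutting and secretion occur after translation, transcript levels do not report the activity of the inflammasome.

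Library totals ranged from 35.3 to 137.8 M expected counts (median 82.04 M), and levels are given as CPM, counts scaled to a common library size by the trimmed mean of M values (TMM). Adipocyte transcripts were abundant, with Fabp4 at 9536 ± 1837 CPM and Adipoq at 2064 ± 626.5 CPM (mean ± SD over all libraries), and all 16 macrophage markers examined were above the count filter. Counts of Y chromosome genes were present in 51.5% of the libraries and absent in 48.5%, and relations are given within these clusters beside the pooled value. In 4 libraries either a ribosomal transcript took over 10% of the counts or counts of both Xist and the Y chromosome genes were lacking, and leaving them out changed no call on a member. The TMM factor (0.580 to 1.37) itself rose with Adgre1 (r = 0.510), whereas the total count did not (r = -0.0119). In bulk tissue a lower level can mean fewer cells of a type or less RNA per cell, and these cannot be told apart.

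The sequences that precede the transcription starts of the agonist Il1b, the antagonist Il1rn, the receptor Tlr2 and the sensor Nlrp3 are shown. Their r with Adgre1 was 0.265 for Il1b, 0.622 for Nlrp3, 0.820 for Tlr2 and 0.825 for Il1rn. The table of RefSeq promoters used here (GRCm38.p6) gave 11 windows for 8 of the 10 genes, with several for Il1rn and Nlrp3, and the windows below run 5′ to 3′ toward the start and stop before the most upstream annotated exon. Capitals mark matches to the NF-kB binding consensus known as the kappaB motif, and all motifs were searched on both strands with overlapping matches merged.
Il1b (chr2:129371140-129371389, minus strand): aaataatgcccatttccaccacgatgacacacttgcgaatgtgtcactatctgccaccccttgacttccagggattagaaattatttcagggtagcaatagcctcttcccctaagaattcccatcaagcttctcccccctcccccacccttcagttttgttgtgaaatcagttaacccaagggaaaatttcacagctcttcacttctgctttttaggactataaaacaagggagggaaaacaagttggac
Il1rn (chr2:24336610-24336852, plus strand): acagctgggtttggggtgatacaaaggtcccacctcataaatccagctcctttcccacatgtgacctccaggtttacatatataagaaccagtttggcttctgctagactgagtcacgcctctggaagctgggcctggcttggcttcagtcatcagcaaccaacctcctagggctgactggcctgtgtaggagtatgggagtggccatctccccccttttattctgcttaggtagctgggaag
Tlr2 (chr3:83841768-83841858, minus strand): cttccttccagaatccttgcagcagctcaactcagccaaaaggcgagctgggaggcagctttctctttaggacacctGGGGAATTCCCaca
Nlrp3 (chr11:59541319-59541567, plus strand): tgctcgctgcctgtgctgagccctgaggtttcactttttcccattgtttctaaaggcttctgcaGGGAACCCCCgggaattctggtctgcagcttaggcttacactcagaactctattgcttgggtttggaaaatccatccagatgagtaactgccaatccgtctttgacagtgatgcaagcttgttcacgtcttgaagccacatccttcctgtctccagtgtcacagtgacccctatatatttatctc
A kappaB match was found within 250 bases of the start in 2 of the 11 windows, those of Tlr2 (GGGGAATTCCC) and of one start of Nlrp3 (GGGAACCCCC). Across all 32851 promoter windows of that length, 7.25% held such a match. The letters TATAAA stood in 4 of the 11 windows (Il1b, Tnf, Myd88 and, on the opposite strand, Il18) against 12.4% of all windows, and the AP-1 motif TGANTCA stood in 1 window, of Il1rn, against 6.75% of all windows. The PU.1 motif GAGGAAGT, which 2.44% of all windows held, was in none of them. These matches describe letters in a window and do not show binding.

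By the coefficient of variation of CPM, Tlr4 and Myd88 were the steadiest members, whereas Tlr2 varied more than Gsdmd, Il18 and Casp1. On the log2 scale Tlr4 was no steadier than Gsdmd (SD 0.331 and 0.327). Tlr4 (chr4:66827584-66930284 on GRCm38), the receptor for bacterial lipopolysaccharide, had a lowest, median and highest level of 10.9, 34.7 and 63.9 CPM, with a mean of 35.6 ± 8.08 CPM (SD over all libraries). Tlr2 (chr3:83836272-83841767), the receptor for bacterial lipoproteins, ran from 2.80 through a median of 6.33 to 35.9 CPM. Myd88 (chr9:119335934-119341411) lay between 14.9 and 36.2 CPM around a median of 22.3 CPM. The coefficient of variation was 0.227 for Tlr4, 0.448 for Tlr2 and 0.146 for Myd88, which was the lowest of the 10 genes. Tlr2 had 1 library far above the rest, from mouse DO021 at 35.9 CPM, while the next highest stood at 20.8 CPM. Myd88 shares exonic sequence with the neighbouring gene Acaa1a on the opposite strand, and only 42.3% of its counts were whole numbers against 100% for the other 9 genes, so part of its level rests on reads divided between genes.

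The inflammasome members differed widely in abundance. Nlrp3 (chr11:59541568-59566956), the sensor, was scarce, with a lowest, median and highest level of 0.405, 1.91 and 12.1 CPM. Casp1 (chr9:5298508-5307290 in the files), the protease, ran from 3.90 through 14.3 to 41.5 CPM. Gsdmd (chr15:75862327-75867408), the pore-forming substrate, ran from 5.98 through 12.6 to 29.7 CPM. The highest library was a different animal for each of these genes, DO200 for Nlrp3, DO535 for Casp1 and DO310 for Gsdmd. Nlrp3 varied most of the 3 genes (coefficient of variation 0.560, against 0.390 for Casp1 and 0.239 for Gsdmd).

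Among the cytokines, Il18 was expressed in every library whereas Il1b and Tnf were close to the detection limit in many. Il18 (chr9:50554827-50581840), which encodes a cytokine made in an inactive form that caspase-1 cuts, ran from 0.426 through 2.71 to 7.69 CPM. Il1b (chr2:129364570-129371139), the main IL-1 agonist, ran from 0.0134 through 0.362 to 10.2 CPM. Tnf (chr17:35199381-35202007), which encodes tumour necrosis factor, ran from 0 through 0.384 to 3.48 CPM. Fewer than 10 counts were found for Il1b in 46 libraries and for Tnf in 38, so single values of these genes are imprecise. Tnf had 0 counts in 3 libraries, in which 3 counts would correspond to between 0.0334 and 0.0740 CPM. The genes Bco2 and Tex12 lie on the opposite strand within the span of Il18 without sharing exonic sequence, and the antisense transcript Il1bos overlaps exons of Il1b. Whether the authors' counting used strand is not given in the sources used here.

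Il1rn (chr2:24336853-24351494), the antagonist, was the most variable member. Its level ran from 0 through a median of 1.77 to 76.3 CPM, with a mean of 5.99 ± 9.93 CPM (SD) and a coefficient of variation of 1.66. The upper quartile (6.57 CPM) was 8.67 times the lower quartile (0.758 CPM), a ratio that was 2.78 for Il1b, 2.79 for Tnf and at most 1.69 for the other 7 genes. The libraries of mice DO512 and DO283 held 0 counts of Il1rn, where 3 counts would correspond to 0.0405 and 0.0740 CPM, and both had low Adgre1 (21.1 and 15.2 CPM). The median of Il1rn was 5.002 CPM in libraries with Y chromosome counts and 0.949 CPM in those without, and the corresponding medians were 0.533 and 0.261 CPM for Tnf, 0.435 and 0.304 CPM for Il1b, and 62.1 and 38.2 CPM for Adgre1. For Casp1 the order was the opposite (13.6 and 15.0 CPM), as it was for Il18 (2.61 and 2.85 CPM). The ranges of the clusters overlapped for all 10 genes, and these cluster medians are given as a description with no test.

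**Figure D1:**
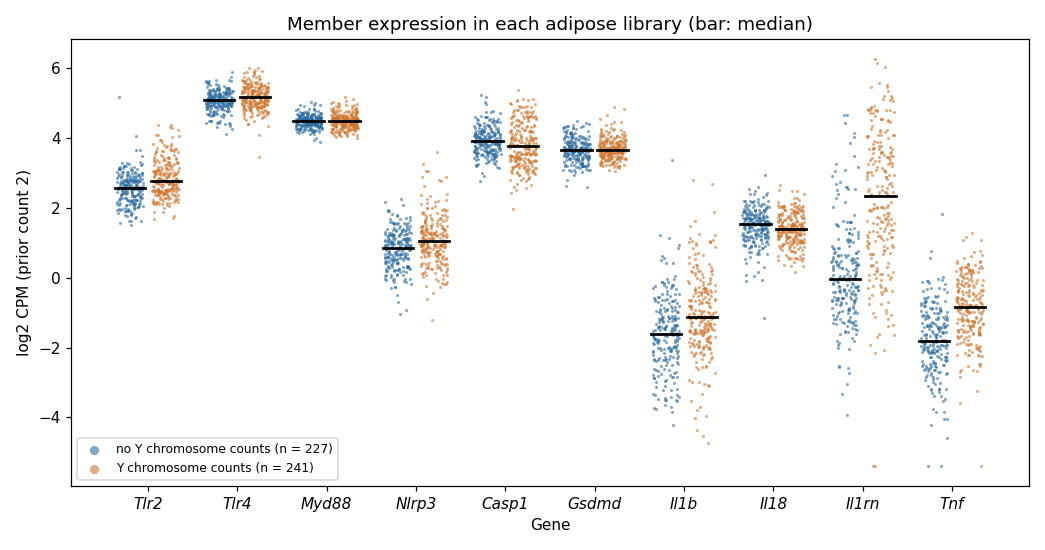
Expression of the 10 genes on the log2 CPM scale (vertical axis, prior count 2), 1 point per library, with blue for libraries without Y chromosome counts, orange for those with them, and a black bar at each cluster's median. Il1rn, Il1b and Tnf spread over several log2 units while Myd88, Gsdmd and Tlr4 stay in narrow bands, and the medians of Il1rn and Tnf sit higher in the orange cluster.

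Divided by the summed length of the annotated exons, so that genes can be ranked against each other, the mean level was highest for Casp1 (10.4 ± 4.05 CPM per kilobase, SD over all libraries), followed by Myd88 (8.78 ± 1.28), Tlr4 (6.40 ± 1.45) and Gsdmd (5.52 ± 1.32). Il18 (2.75 ± 0.928), Tlr2 (2.33 ± 1.04) and Il1rn (1.08 ± 1.79) came next, and Nlrp3 (0.525 ± 0.294), Tnf (0.300 ± 0.239) and Il1b (0.292 ± 0.403) were lowest. Not all neighbours in this order were separated. Casp1 exceeded Myd88 in 62.8% of the libraries, Tlr4 exceeded Gsdmd in 74.4%, Il18 exceeded Tlr2 in 71.4% and Tnf exceeded Il1b in 56.2%. Il1rn exceeded Nlrp3 in 41.9% of the libraries despite its higher mean, which rests on a minority of libraries with high values. The clear steps were Gsdmd above Il18 in 98.9% of the libraries, Myd88 above Tlr4 in 91.03%, Tlr2 above Il1rn in 88.9% and Nlrp3 above Tnf in 86.8%.

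To ask which members followed this macrophage gene, the counts of every gene were regressed on log2 CPM of Adgre1. Adgre1 itself ran from 10.7 through 47.5 to 671.6 CPM. It is 1 transcript and no count of macrophages, and the macrophage markers Mertk (r = 0.142) and Cd163 (r = 0.149) followed it only weakly. With edgeR's quasi-likelihood test and Benjamini-Hochberg adjustment over all 18379 other genes, 9 of the 10 members rose with Adgre1 and 1, Il18, did not pass. Across all genes, 77.2% passed in either direction and 35.5% rose, and the median slope was -0.01 on the log2 scale. Il1rn had the steepest slope of the members, 1.82 ± 0.053 (log2 change per log2 unit of Adgre1 ± SE, adjusted p = 2.1e-129), which corresponds to a 3.53-fold increase for each doubling of Adgre1. A slope above 1 says that Il1rn changed by a larger factor than Adgre1 itself. Tnf followed at 0.75 ± 0.040 (adjusted p = 7.8e-58), then Tlr2 at 0.48 ± 0.015 (adjusted p = 1.8e-122) and Nlrp3 at 0.46 ± 0.024 (adjusted p = 4.6e-60). Slopes were lower for Il1b (0.39 ± 0.052), Casp1 (0.35 ± 0.021), Gsdmd (0.20 ± 0.014), Tlr4 (0.17 ± 0.015) and Myd88 (0.11 ± 0.0089), with adjusted p-values between 7.2e-13 and 1.6e-47. Within libraries without and with Y chromosome counts, slopes were 1.49 and 1.79 for Il1rn, 0.78 and 0.62 for Tnf and 0.54 and 0.50 for Tlr2. They were 0.37 and 0.55 for Nlrp3, 0.29 and 0.24 for Gsdmd and 0.17 and 0.18 for Tlr4. Among these genes, the pooled slope lay above both cluster slopes for Il1rn and below both for Tlr2 and Gsdmd. The slope of Il18 was 0.045 ± 0.026 (95% interval -0.0052 to 0.095, adjusted p = 0.0999). An increase larger than 0.095 lies outside this interval, which holds only for TMM scaling with Adgre1 as the predictor over all libraries. Il18 did pass within libraries without Y chromosome counts (0.19, adjusted p = 0.00104), with Csf1r in place of Adgre1 as predictor (0.17, adjusted p = 9.9e-05), with Xist and Y chromosome genes added (0.10, adjusted p = 8.1e-04), with limma on log2 CPM (0.059, adjusted p = 0.0261) and with total-count scaling (0.14, adjusted p = 5.4e-08).

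The scaling sets part of these values. When libraries were scaled by total count alone, the median slope of all genes moved from -0.01 to 0.09, and 76.04% of the genes that passed rose against 45.96% with TMM. All 10 members then rose. Relative to the median of all genes, the slope of Il1rn was 1.63 (1.83 with TMM), that of Tlr2 0.45 (0.49), that of Myd88 0.10 (0.12) and that of Il18 0.055 (0.057), so no member other than Il18 depended on the scaling for its call.

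Across libraries, Il1rn and Tlr2 tracked Adgre1 most closely. The Pearson r of log2 CPM was 0.825 for Il1rn (Spearman rho 0.807) and 0.820 for Tlr2 (rho 0.767), above 98.7% of all genes in both cases. It was 0.656 for Tnf (rho 0.638), 0.622 for Nlrp3 (rho 0.543), 0.592 for Casp1 (rho 0.519) and 0.574 for Gsdmd (rho 0.532). Myd88 (0.476, rho 0.366), Tlr4 (0.467, rho 0.447) and Il1b (0.265, rho 0.229) followed less closely. All of these reached a two-sided permutation p of 1e-05, the smallest that 100000 resamples can give (1.1e-05 adjusted over the 10 relations). For Il18, r was 0.108 (permutation p = 0.0193) and rho was 0.0718 (permutation p = 0.121). Without the 2 libraries farthest from the median of Adgre1, r was 0.841 for Il1rn, 0.808 for Tlr2, 0.231 for Il1b and 0.0933 for Il18. Within libraries without and with Y chromosome counts, r was 0.557 and 0.875 for Il1rn, 0.758 and 0.844 for Tlr2, 0.505 and 0.822 for Casp1, and 0.260 and 0.666 for Myd88. Likewise it was 0.499 and 0.649 for Tnf, 0.430 and 0.706 for Nlrp3, and 0.540 and 0.714 for Gsdmd. For Tlr4 the values were 0.354 and 0.499, for Il1b 0.158 and 0.199, and for Il18 0.264 and 0.103. Within the 5 blocks of consecutive library numbers, the r of Il1rn lay between 0.754 and 0.868 and that of Tlr2 between 0.759 and 0.864.

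**Figure D2:**
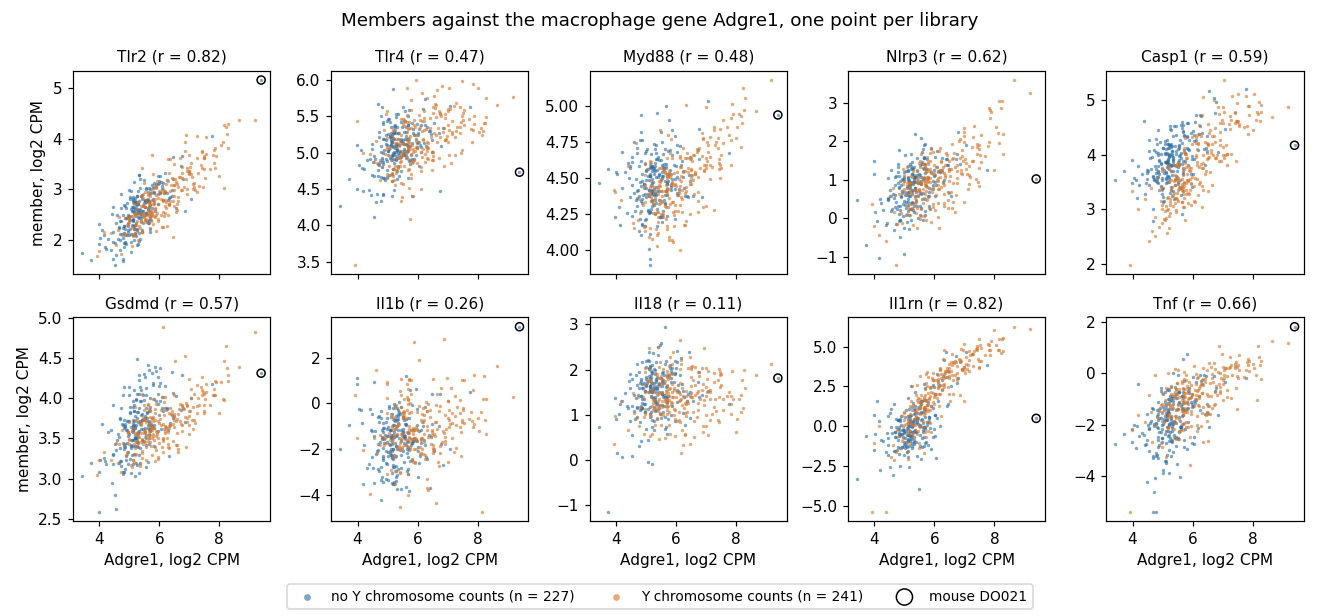
Log2 CPM of each gene (vertical axes) against log2 CPM of Adgre1 (horizontal axes), 1 point per library in blue (without Y chromosome counts) or orange (with them), with the library of mouse DO021 circled. Il1rn and Tlr2 form the tightest upward bands (r = 0.82 each), and Il18 forms a cloud (r = 0.11). The circled library is the highest point for Tlr2 and Tnf but lies far below the band for Il1rn.

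The library with the highest Adgre1, that of mouse DO021 (671.6 CPM), did not share the profile of the next ones. It held the highest Il1b (10.2 CPM), Tnf (3.48 CPM), Tlr2 (35.9 CPM) and the neutrophil and monocyte receptor Csf3r (42.3 CPM) of all libraries. Its Il1rn was only 1.39 CPM, a level that 55.6% of the libraries exceeded. The next highest libraries for Adgre1, DO088 (579.2 CPM) and DO200 (402.5 CPM), had Il1rn at 70.2 and 76.3 CPM, the 2 highest values of all. Nlrp3 showed the same split, at 2.01 CPM in DO021 against 9.46 and 12.1 CPM in the other two. Tlr4 was 26.5 CPM in DO021, a level that 88.9% of the libraries exceeded, against 54.2 CPM in DO088 and 50.1 CPM in DO200. DO021 lacked Y chromosome counts while DO088 and DO200 held them, so the contrast also sets the 2 clusters against each other. Among libraries without these counts, the highest level was 25.3 CPM for Il1rn and 4.69 CPM for Nlrp3. The part of the cluster in this contrast was not tested. Other genes of the neutrophil list were mixed in DO021, with S100a8 (0.673 CPM) and S100a9 (0.0528 CPM) exceeded by 67.5% and 83.97% of the libraries, and Cxcr2 (0.842 CPM) and Retnlg (0.422 CPM) by 11.1% and 36.97%. This library was added to the alternatives after the data had been seen, and without it 9 members still rose with Adgre1, with slopes of 1.83 ± 0.052 for Il1rn and 0.31 ± 0.057 for Il1b.

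The slopes were next compared between the clusters with and without Y chromosome counts by an interaction term in edgeR, for which 50.8% of all genes passed, so that a difference was common. It passed for 5 members. Casp1 rose faster in libraries with Y chromosome counts (0.56 ± 0.025) than in those without (0.34 ± 0.036), a difference of 0.23 ± 0.045 (adjusted p = 4.7e-06). Myd88 did so by 0.086 ± 0.021 (adjusted p = 1.9e-04), Nlrp3 by 0.19 ± 0.063 (adjusted p = 0.00903) and Il1rn by 0.30 ± 0.13 (adjusted p = 0.0388). Il18 differed in the other direction, by -0.14 ± 0.063 (adjusted p = 0.0442, but 0.0508 with no filter on low counts), with slopes of 0.19 ± 0.052 without and 0.047 ± 0.033 with Y chromosome counts. For Tlr2 (-0.04, 95% interval -0.11 to 0.03) and Tlr4 (0.015, interval -0.06 to 0.09) the intervals were narrow around 0, while those of Tnf (-0.35 to 0.03) and Il1b (-0.40 to 0.04) were wide. The difference of Il1b turned from -0.18 to 0.22 (adjusted p = 0.184) without mouse DO021. Without the same library, the differences of Nlrp3 (0.14, adjusted p = 0.0589) and Il1rn (0.25, adjusted p = 0.0874) no longer passed, while those of Casp1 (0.19, adjusted p = 1.9e-04) and Myd88 (0.094, adjusted p = 1.3e-04) did. With total-count scaling the median difference of all genes moved from -0.01 to -0.13, Myd88 (-0.03) and Tlr4 (-0.11) changed sign, Nlrp3 no longer passed (0.084, adjusted p = 0.195), and Gsdmd, Tnf, Tlr2 and Tlr4 came to pass with negative differences. Relative to that median Myd88 stood at 0.11 (0.099 with TMM), Casp1 at 0.26 (0.24) and Nlrp3 at 0.22 (0.20). The genes that came to pass lay close to the median, with Tlr2 at 0.028, Tlr4 at 0.029, Gsdmd at -0.040 and Tnf at -0.056 relative to it. The clusters match the sexes reported by the paper in number. They also lay in alternating runs of mouse numbers, so a contrast of the clusters is also a contrast of number blocks. What else separates the clusters was not tested.

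Il1b depended on a single library within the cluster without Y chromosome counts. Its slope there was 0.42 ± 0.073 with all libraries of the cluster and 0.022 ± 0.11 (adjusted p = 0.876) without mouse DO021, and its r with Adgre1 went from 0.158 to 0.0366. In libraries with Y chromosome counts the slope was 0.24 ± 0.079 (adjusted p = 0.00413) and r was 0.199.

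**Figure D3:**
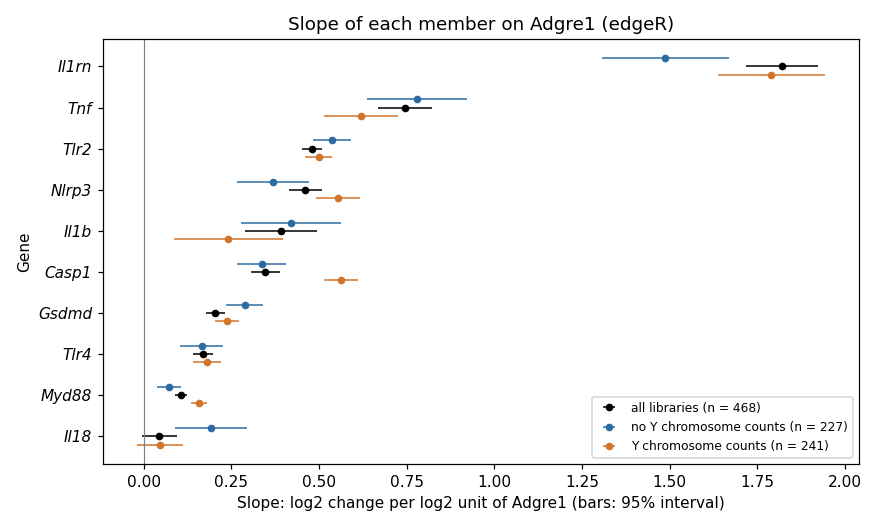
Slope of each gene on Adgre1 (horizontal axis, log2 change per log2 unit of Adgre1; bars show 95% intervals) in all libraries (black), those without Y chromosome counts (blue) and those with them (orange). Il1rn lies apart at 1.82, Il18 lies near 0, and the blue and orange intervals of Casp1 do not overlap.

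Agonist and antagonist were then set against each other as log2 CPM of Il1b minus log2 CPM of Il1rn in the same library. The difference had a median of -2.27 and ran from -9.55 to 5.73, and Il1b was below Il1rn in 89.96% of the libraries and above it in 9.62%. It fell as Adgre1 rose (Pearson r = -0.665, Spearman rho = -0.687, permutation p = 1e-05 for both, the smallest possible), with r = -0.374 in libraries without and -0.719 in libraries with Y chromosome counts. Without mouse DO021, which held the second highest difference (2.86), r was -0.705 overall and -0.503 in libraries without Y chromosome counts. The most negative value came from mouse DO393, with 0.0134 CPM of Il1b and 28.004 CPM of Il1rn at 283.96 CPM of Adgre1. The most positive value, from DO283, rested on 0 counts of Il1rn and 1.25 CPM of Il1b in the shallowest library. This compares transcripts by CPM without regard to gene length or protein. Il1b and Il1rn each rose with Adgre1 over all libraries (r = 0.265 and 0.825). The fall of their difference therefore restates the steeper rise of Il1rn and is no separate result.

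The members varied together, and their median r was lower at a given level of Adgre1. Over the 45 pairs the median r was 0.352 (-0.0436 to 0.688), and 40 pairs had a permutation p under 0.05 (also after adjustment over the 45 pairs), all of them positive. No share over pairs of other genes is given here, and 77.2% of all genes passed for Adgre1. The counts of passing pairs, here and given Adgre1, therefore cannot be called particular to these genes. The closest pairs were Gsdmd with Tlr2 (0.688), Il1rn with Tlr2 (0.643), Il1rn with Tnf (0.619) and Nlrp3 with Tlr2 (0.610), so Tlr2 was in 3 of the 4. The caspase-1 substrates Il1b and Il18 showed no detectable relation to each other (r = 0.00690, permutation p = 0.883), and the r of Casp1 was 0.0630 with Il1b (permutation p = 0.174) and 0.104 with Il18. The median r was 0.2499 within libraries without and 0.459 within those with Y chromosome counts. After the linear effect of Adgre1 had been removed from each gene, the median fell to 0.0807 (-0.262 to 0.463), and 28 pairs passed after adjustment, 20 positive and 8 negative. The highest remaining values were for Gsdmd with Tlr2 (0.463) and Gsdmd with Il18 (0.458). Il1rn was negatively related to Gsdmd (-0.262, against 0.352 before) and to Il18 (-0.236, against -0.0436 before), although within libraries with Y chromosome counts these were -0.158 and -0.0617. Tlr4 and its adaptor Myd88 were also slightly opposed at a given Adgre1 (-0.137).

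**Figure D4:**
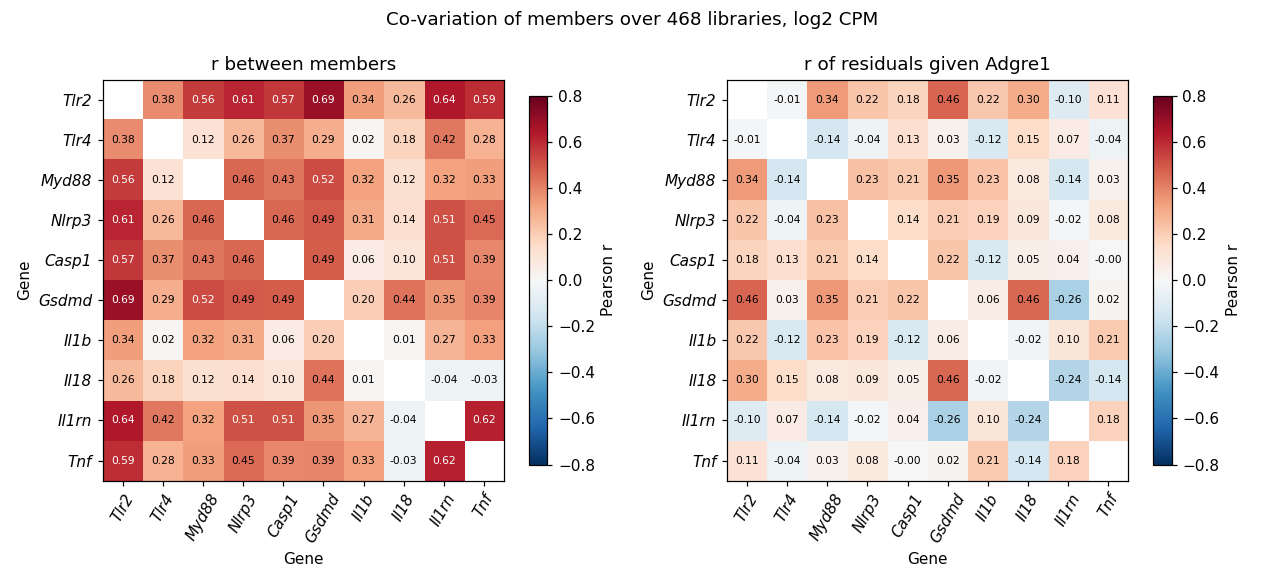
Pearson r of log2 CPM for the 45 pairs of genes over all libraries (left) and of the residuals after the linear effect of Adgre1 was removed (right), with red for positive and blue for negative values. On the left nearly all cells are red (median 0.352); on the right most fade (median 0.0807), and Gsdmd with Tlr2 and with Il18 stay at 0.46.

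Marker scores for 11 cell types, each the mean of the standardised log2 CPM of its genes, were compared with the 10 members, giving 110 relations. The macrophage score followed Adgre1 at r = 0.929, and members ranked against it much as they did against Adgre1, from 0.834 for Il1rn to 0.178 for Il18. Other members leaned toward other cell types. Il18 was closest to the mesothelium score (r = 0.512, rho = 0.482, permutation p = 1e-05, 0.615 without and 0.393 with Y chromosome counts), the mesothelium being the layer that covers visceral organs. Gsdmd was closest to the adipocyte progenitor score (0.681), and given Adgre1 its r was 0.555 with that score and 0.547 with the mesothelium score. Il1b had its highest r with the neutrophil score (0.357, rho = 0.324, and 0.333 given Adgre1). That score rests on 7 of 14 listed genes that passed the filter, and none of them exceeded 7.90 CPM on average. Tlr2, Nlrp3 and Myd88 fell as the adipocyte score rose (r = -0.576, -0.522 and -0.469), while Tlr4 showed little relation to it (-0.0465, permutation p = 0.317). Given Adgre1, Tlr4 was the member most positively related to the adipocyte score (0.275), where Tlr2 stood at -0.278. In the library with the most Il18 (DO144, 7.69 CPM) the mesothelial gene Upk3b was at 278.5 CPM, among the 3 highest of all libraries, but in the library with the next most Il18 (DO310, 6.29 CPM) it was at 89.2 CPM, a level that 41.9% of the libraries exceeded. The part that the amount of mesothelium or other tissue in the dissected sample played was not tested.

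**Figure D5:**
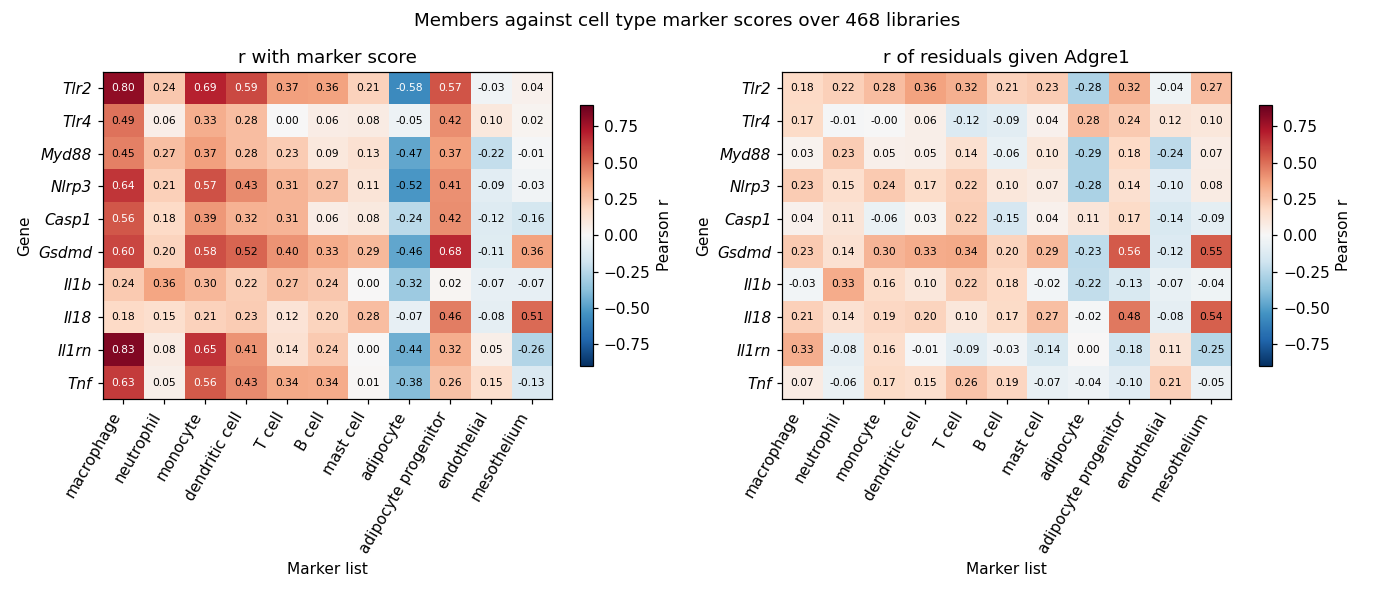
Pearson r over all libraries between each gene (rows) and marker scores of 11 cell types (columns), as measured (left) and after the linear effect of Adgre1 was removed from both (right). The macrophage column is strongest on the left (0.83 for Il1rn), and on the right Il18 and Gsdmd stand out in the mesothelium column (0.54 and 0.55).

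The genes outside the list whose log2 CPM was most like that of each member were found among genes averaging 1 CPM or more, as a description over all libraries. Il1rn had by far the closest partners, Adam8 (r = 0.927), Cd84 (0.921) and Atp6v0d2 (0.916), the last a subunit of the lysosomal proton pump. Adam8 (0.753), Tm4sf19 (0.738) and Atp6v0d2 (0.732) remained closest to it given Adgre1. Il1b went instead with the transcription factor gene Junb (0.516), the adhesion molecule Icam1 (0.479) and the cytokine signalling inhibitor gene Socs3 (0.463), and given Adgre1 with Junb (0.460), Icam1 (0.413) and Nr4a1 (0.394). Tlr2 went with Vav1 (0.842), Pld4 (0.841) and Pik3cd (0.839), and Tnf with Arhgap30 (0.726), Lyn (0.723) and the pan-leukocyte gene Ptprc (0.723). Nlrp3 went with Fes (0.659), Vav1 (0.657) and Fyb (0.655). For Il18 the closest gene was Bco2 (0.587), a carotenoid-cleaving enzyme gene that overlaps it on the opposite strand, followed by Adgrd1 (0.524) and Flrt2 (0.520). Given Adgre1, Bco2 (0.602) was followed by the mesothelial genes Nkain4 (0.561) and Upk3b (0.559). Gsdmd went with Arhgap45 (0.712), the complement inhibitor gene Serping1 (0.712) and Arhgdib (0.709), and given Adgre1 with the mesothelial transcription factor gene Wt1 (0.621), Cacnb3 (0.614) and C1ra (0.608). Casp1 went with Sh3pxd2b (0.682), Anpep (0.679) and Adam17 (0.668), the protease that releases tumour necrosis factor from the membrane. Its closest genes given Adgre1, Rmi1 (0.563), Pbdc1 (0.552) and Dhcr7 (0.541), were weaker in libraries without Y chromosome counts (0.0975, 0.244 and 0.307). Tlr4 went with Vwa5a (0.634), Abca9 (0.601) and Washc4 (0.588), and Myd88 with Ssbp4 (0.640), Cic (0.635) and the TLR4 co-receptor gene Cd14 (0.623).

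The rest of the pathway was read from fixed lists in the same edgeR fit on Adgre1. The lists are to be set against 35.5% of genes rising, 7665 of 18379 falling and a median slope of -0.01. Of 16 other TLRs and co-receptors, 14 rose, none fell and 2 did not pass (median slope 0.58). Cd180 (1.41 ± 0.031) and Tlr13 (1.26 ± 0.026), a sensor of bacterial ribosomal RNA, were steepest, and the scavenger receptor gene Cd36 was lowest at -0.0045 ± 0.012. Of 15 adaptors, kinases and other genes of TLR signalling, 9 rose, 4 fell and 2 did not pass (median slope 0.04). They ran from Irf5 (0.81 ± 0.015) and the adaptor Ticam2 (0.72 ± 0.017) down to Sarm1 (-0.20 ± 0.038). Of 15 NF-kB subunits and inhibitors, 12 rose and 3 fell (median slope 0.12), with the inhibitor gene Nfkbid highest (0.60 ± 0.021) and Nfkbia lowest (-0.08 ± 0.018).

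Among 22 other inflammasome and pyroptosis genes, 19 rose, 1 fell and 2 did not pass (median slope 0.47). Mefv (0.79 ± 0.052), which encodes the sensor pyrin, and Naip2 (0.73 ± 0.027) were steepest, the adaptor gene Pycard stood at 0.61 ± 0.029, and Txnip, which encodes a thioredoxin-binding protein abundant in adipose tissue at 1889 ± 519.1 CPM, fell with Adgre1 (-0.25 ± 0.017). The Naip genes are related copies of each other, as are the Nlrp1 genes, so reads may have been divided within each of these families. Of 11 other IL-1 family ligands and receptors analysed here, 9 rose and 2 did not pass (median slope 0.23), with Il1rl1, the receptor gene for IL-33, steepest (0.43 ± 0.025) and the IL-18 binding protein gene Il18bp at -0.0030 ± 0.025. The signalling receptor gene Il1r1 stood at 0.21 ± 0.019, far below the 1.82 of Il1rn. Of 15 genes of the TNF pathway, 12 rose, none fell and 3 did not pass (median slope 0.17), with the receptor gene Tnfrsf1b highest (0.56 ± 0.013) and Birc2 lowest (-0.01 ± 0.010).

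Markers of cell types were read in the same fit, to be set against 35.5% of all genes rising and 7665 of 18379 falling. Of 16 macrophage genes, 15 rose (median slope 0.57), and Mertk did not pass (0.051 ± 0.026). Cd163 rose only slightly (0.069 ± 0.025), while Itgax (2.12 ± 0.059) and Gpnmb (1.92 ± 0.051) led. Trem2 (0.59 ± 0.068) and Cd9 (0.52 ± 0.023), which like Itgax and Gpnmb are known from lipid-associated macrophages, had much lower slopes. All 9 T cell genes (median slope 0.23), all 7 B cell genes (0.34), 6 of 8 monocyte genes (0.31), 5 of 8 dendritic cell genes (0.28), 4 of 7 mast cell genes (0.081), 8 of 10 adipocyte progenitor genes (0.10) and 3 of 8 endothelial genes (0.012) rose. Of the 7 neutrophil genes tested, 3 rose and 3 fell. Of 10 adipocyte genes 7 fell and none rose (median slope -0.19), and of 10 mesothelium genes 6 fell and none rose (-0.14). The part of these cell types in the slopes of the members was not tested.

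The labels give a mouse number and a library number, the only orders in which the libraries can be placed, and both were fitted together with every gene in edgeR. Of the 10 members only Myd88 changed with mouse number, by 0.024 ± 0.0061 per 100 numbers (adjusted p = 0.00211), against 23.9% of all genes. No member passed for library number by edgeR, against 0.267% of all genes, and limma and DESeq2 called no member either. At an unadjusted p under 0.05 the counts were 0 of the 10 members and 1670 of the 18380 genes. With Xist and the Y chromosome genes added, Il1b also passed for mouse number (-0.13, adjusted p = 0.0174). The clusters lay in alternating runs of mouse numbers, with mice DO021 to DO070 lacking Y chromosome counts and DO071 to DO120 holding them. The main fit on mouse number did not include the cluster, so its slopes and the 23.9% share can hold cluster differences. What the mouse and library numbers stand for is not stated, so they cannot be assigned to a batch or to time.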

How the data were processed

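Adipose RNA of 468 DO mice (241 libraries with and 227 without Y chromosome counts) was sequenced from poly(A) libraries. Per the study's methods, the authors aligned both reads as single ends to a transcriptome of the founder strains with EMASE run through GBRS (build GRCm38 in the submitters' notes, versions not given in the sources used here) and filtered scarce transcripts. The authors deposited expected counts per gene, which need not be whole, and log2-like values from a variance stabilising transformation (VST) by DESeq2, for which the methods describe removal of batch effects. The VST values entered as an alternative only.

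Expected counts were rounded, filtered (at least 10 counts in at least 50% of libraries) and scaled by TMM in edgeR 4.0.16 (R 4.3.3), and log2 CPM used a prior count of 2. Associations with Adgre1, mouse number and library number, and the interaction with the presence of Y chromosome counts, were tested by edgeR's quasi-likelihood test with Benjamini-Hochberg adjustment over all genes at 0.05. Correlations used permutation tests of 100000 resamples (scipy 1.17.1), and alternatives used 10000. Alternatives used limma 3.58.1 and DESeq2 1.42.0. The fitting code was tested on simulated data. Genes named outside the list were the 3 closest to each member among genes averaging 1 CPM or more, as measured and given Adgre1, and the ends of each pathway list, with a few further genes chosen after their values were seen. The genes and lists were chosen with earlier results of these data known. Floors of 3 counts cover counting error only.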

Additional observations from a re-analysis of the deposited data

Results flagged for a closer look

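For 5 of the 10 genes the slope on Adgre1 differed between libraries with and without Y chromosome counts by the interaction term in edgeR (adjusted p under 0.05), which was also the case for 50.8% of all genes. As slope with minus slope without Y chromosome counts, the differences were 0.23 for Casp1, 0.30 for Il1rn, 0.19 for Nlrp3, 0.086 for Myd88 and -0.14 for Il18. The calls of Il1rn, Nlrp3 and Il18 were lost in some alternatives. Il1rn and Nlrp3 no longer passed without mouse DO021, at 0.25 (adjusted p = 0.0874) and 0.14 (adjusted p = 0.0589), Il1rn did not pass with capped counts (0.28, adjusted p = 0.0573), Nlrp3 did not pass with total-count scaling (0.084, adjusted p = 0.195), and Il18 did not pass with no filter on low counts (-0.14, adjusted p = 0.0508).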

How the results depend on the processing

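In the alternatives for the Adgre1 slopes, 160 values kept their direction and their side of the threshold and 5, all of Il18, came to pass. For the difference between clusters 64 were the same, 3 came to pass (Gsdmd -0.17, Tnf -0.19 and Tlr2 -0.11, all with total-count scaling), 5 no longer passed and 5 changed sign. The sign changed with total-count scaling for Tlr4 (-0.11, adjusted p = 0.00412) and Myd88 (-0.027, adjusted p = 0.306), without mouse DO021 for Il1b (0.22, adjusted p = 0.184) and Tlr4 (-0.024, adjusted p = 0.627), and with capped counts for Il1b (0.00059, adjusted p = 0.998). No longer past the threshold were Nlrp3 with total-count scaling (0.084, adjusted p = 0.195) and without mouse DO021 (0.14), Il1rn without mouse DO021 (0.25) and with counts capped at the 99th percentile (0.28, adjusted p = 0.0573), and Il18 with no filter on low counts (-0.14, adjusted p = 0.0508). Total-count scaling, leaving out 4 libraries and leaving out mouse DO021 were added after the data had been seen. With total-count scaling 69.9% of genes differed between clusters against 50.8%, of which 11.9% were positive against 46.96%. The share of genes called for mouse number was 12.3% against 23.9% with Xist and the Y chromosome genes added. For library number 0.267% of genes were called, against 0.490% with DESeq2, 0.591% with no filter, 0.141% without the shallowest 46 libraries, 0.0163% with capped counts and 0 genes with limma on log2 CPM (1006 at an unadjusted p under 0.05) or on VST values (946). Slopes per 100 mouse or library numbers that passed neither before nor after also changed sign. For mouse number these were 11 values, with total-count scaling, Nlrp3 0.0014, Il18 0.0030 and Tnf 0.0041, with limma on log2 CPM, Nlrp3 0.0011, Il18 0.00025 and Tnf 0.030, with Xist and the Y chromosome genes added, Il18 0.0080 and Tlr2 -0.018, with capped counts, Nlrp3 0.00085 and Tnf 0.0089, and on VST values, Tnf 0.0060. For library number they were 8 values, with total-count scaling, Casp1 0.0033, with limma on log2 CPM, Casp1 0.0026, Il18 0.0042 and Tnf 0.013, on VST values, Casp1 0.0013 and Tnf 0.00065, and for Myd88, -0.0033 without the shallowest 46 libraries and -0.00027 without the 4 libraries that stand apart. The cause of these shifts was not tested. All alternatives for the levels, the pair correlations and the difference between Il1b and Il1rn gave the same result. No paired analysis was possible because the libraries form 1 group. Depth limits Il1b and Tnf, which had under 10 counts in 46 and 38 libraries.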
